A study of Mus musculus with 6 samples.

Results

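SLC26 and SLC4 proteins carry chloride, bicarbonate and sulfate across the 2 faces of the colonic epithelium, and their transcripts were followed here in colon of mice that lack NHE3, a luminal sodium-hydrogen exchanger and the product of Slc9a3. The members were 7 genes, Slc26a2, Slc26a3, Slc26a6, Slc4a1, Slc4a2, Slc4a4 and Slc4a7, of which 6 are among the 18194 genes that the platform annotation names alone for some probe set. Each probe set, a group of short probes against 1 transcript stretch, was taken if the annotation ties it to a member and to no other gene. This gave 17 of the 45101 probe sets of an Affymetrix mouse array, 8 for the SLC26 genes and 9 for the SLC4 genes. No probe set was tied to Slc4a7 alone, so its transcript was not analysed here.

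Total RNA from dissected whole colon was hybridised with a single biotin label. The NHE3-/- group held 3 arrays and the NHE3+/+ group, of wild-type littermates, held 3, all from mice aged 6 to 8 weeks and with no treatment given in the labels. The labels do not say that each array came from a separate mouse, nor do they give the strain, the sex or the part of Slc9a3 that is disrupted. P-values therefore measure the spread between these arrays, which may be technical.

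In the textbook account, the colon takes up sodium chloride by pairing luminal sodium-hydrogen exchange with luminal chloride-bicarbonate exchange, the second step being the work of Slc26a3. Bicarbonate that enters from the blood side is carried by SLC4 proteins of the basolateral membrane, of which Slc4a4 and Slc4a7 move it together with sodium and Slc4a2 exchanges it for chloride. Loss of human SLC26A3 causes congenital chloride diarrhoea, and mice without NHE3 also have diarrhoea.

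The start windows of Slc26a3 and Slc4a4 are shown because these genes hold the largest called fold change and the only fall among the members. Each is a 300-base window of RefSeq on GRCm38.p6, plus strand, from 250 bases before to 50 bases after an annotated start. Windows were found for 5 of the 7 members, and Slc4a4 has 2 of them, which lie 140706 bases apart. Capitals mark a run that holds all but the last letter of the HNF1 motif, as described below.
Slc26a3, chr12:31437969-31438268: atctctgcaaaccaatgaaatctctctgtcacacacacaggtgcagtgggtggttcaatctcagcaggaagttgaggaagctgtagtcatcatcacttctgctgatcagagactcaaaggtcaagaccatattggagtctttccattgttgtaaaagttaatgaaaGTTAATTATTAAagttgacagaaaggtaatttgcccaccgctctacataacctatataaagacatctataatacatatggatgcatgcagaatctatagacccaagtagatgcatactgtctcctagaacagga
Slc4a4 upstream start, chr5:88887010-88887309: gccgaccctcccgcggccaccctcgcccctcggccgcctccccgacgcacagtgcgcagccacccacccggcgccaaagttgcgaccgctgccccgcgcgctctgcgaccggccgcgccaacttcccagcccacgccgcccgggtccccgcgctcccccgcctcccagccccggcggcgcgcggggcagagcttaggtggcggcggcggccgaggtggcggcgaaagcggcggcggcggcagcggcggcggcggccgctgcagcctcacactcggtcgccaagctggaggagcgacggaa
Slc4a4 downstream start, chr5:89027716-89028015: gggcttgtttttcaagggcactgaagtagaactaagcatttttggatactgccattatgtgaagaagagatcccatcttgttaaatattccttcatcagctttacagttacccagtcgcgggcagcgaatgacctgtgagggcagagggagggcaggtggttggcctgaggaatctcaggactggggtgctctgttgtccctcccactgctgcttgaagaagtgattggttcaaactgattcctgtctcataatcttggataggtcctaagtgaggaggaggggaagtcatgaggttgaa

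The 3 windows differ in base composition. G and C make up 39.3% of the Slc26a3 window, 80% of the upstream Slc4a4 window and 48.3% of the downstream one, against a median of 52.7% over all 32817 windows of the table. Exact letters were searched on both strands for the palindromic steroid receptor element, CDX (TTTATG), HNF4 (CAAAGTCCA) and the palindromic HNF1 motif, factors of hormone response or of gut epithelium. None of these letters occurred in the 3 windows shown. They occurred in 0.00914%, 11.9%, 0.475% and 0.00914% of all windows in that order. The run in capitals holds the HNF1 motif without its last letter, from 84 to 73 bases before the Slc26a3 start, a search added after the sequence had been seen, and 20 of the 32817 windows (0.0609%) hold it. Among the windows of Slc26a6, Slc4a2 and Slc4a7, the CDX letters occurred in that of Slc4a7 and none of the other letters were found.

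The values are deposited signals on a linear intensity scale, and fold changes are NHE3-/- minus NHE3+/+ on the scale log2(signal + 31.4), which understates the change of dim transcripts. A probe set was called when limma's adjusted p, over all 27024 probe sets with enough signal to be tested, was under 0.05. By this rule 11.2% of the tested probe sets were called, 4.97% higher and 6.24% lower in NHE3-/- colon. With array medians set equal, the split was 1595 higher and 738 lower in place of 1342 and 1685. Over the whole set tested, log2 fold changes had a median of -0.10 on the deposited scale, 0.01 with equal medians and -0.02 after quantile normalization. Fold changes below use the deposited scale.

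Of the 17 member probe sets, 14 were bright enough to be tested, and 6 were called higher and 1 lower. All 6 that rose belong to Slc26a2 and Slc26a3, and the 1 that fell belongs to Slc4a4. The 3 left out are 2 of Slc4a1 and 1 of Slc4a4. The signals of the 3 NHE3-/- arrays lay wholly above or below those of the 3 NHE3+/+ arrays for 8 of the 14, against 32.3% of all tested probe sets. Of these 8, 6 were higher and 2 lower in NHE3-/- colon, against 12.2% and 20.1% of all tested. Fewer cells of a type and less RNA per cell cannot be told apart in whole tissue.

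The arrays carry 1 imbalance that touches each comparison. Xist, the RNA of the inactive X chromosome in females, had signals of 2639, 1929 and 12.3 on NHE3-/- arrays 1, 2 and 3, against 4.3, 8 and 2 on the NHE3+/+ arrays. By this RNA, NHE3-/- arrays 1 and 2 read as female and the other arrays as male. Sex is thus not balanced between the genotypes, and the 2 cannot be fully told apart in any call. NHE3-/- array 3 was also set alone against the 3 NHE3+/+ arrays, where its spread was taken from the NHE3+/+ group. The mean log2 value of the SLC26 genes minus that of the SLC4 genes, set out below, then changed by 0.71 between genotypes. This size rests on 1 NHE3-/- array, and the part of sex was not tested. Slc9a3 itself gave 5970, 4266 and 3665 on the NHE3-/- arrays and 5908, 5647 and 6669 on the NHE3+/+ arrays with its brighter probe set (log2 fold change -0.42, SE 0.16, limma adjusted p = 0.120). Its dimmer one gave 473.4, 608.7 and 264.9 on the NHE3-/- arrays and 345.6, 344.8 and 107.8 on the NHE3+/+ arrays (0.76, SE 0.39, adjusted p = 0.230). The brighter one was called lower without NHE3-/- array 1 (-0.61, adjusted p = 0.0199), and with NHE3-/- array 3 alone it was -0.72. In 13 of the 15 alternative settings it was not called. Over all 15 its log2 fold change ran from -0.72 to -0.26, with adjusted p up to 0.364. A probe set outside the disrupted part checks nothing, and the position of these was not given in the sources used here.

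Slc26a3, the luminal chloride-bicarbonate exchanger also known as DRA, was higher in NHE3-/- colon on 3 of its 4 probe sets. The probe set 1427547_a_at had signals of 22726, 24152 and 30767 on the NHE3-/- arrays, against 12671, 13878 and 9633 on the NHE3+/+ arrays. Every NHE3-/- array lay above every NHE3+/+ array, and the mean signal was 2.15 times as high. The log2 fold change was 1.10 (SE 0.15, limma adjusted p = 0.00125), the largest among the member probe sets called.

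The probe set 1421445_at of Slc26a3 had 18002, 20108 and 23979 in NHE3-/- colon and 12396, 11947 and 9554 in NHE3+/+ colon. The groups again did not overlap, with a log2 fold change of 0.87 (SE 0.13, limma adjusted p = 0.00242). The brightest, 1429467_s_at, had 29803, 31847 and 41274 in NHE3-/- colon and 19368, 22371 and 20074 in NHE3+/+ colon (log2 fold change 0.72, SE 0.13, limma adjusted p = 0.00535). On all 3 called Slc26a3 probe sets, NHE3-/- array 3, the one of its group with little Xist, gave the highest signal. This trait is not particular to Slc26a3. The highest signal of any probe set was 50814.2, 56894.5 and 68916.8 on NHE3-/- arrays 1, 2 and 3. The brightest probe set of Krt8, an epithelial keratin gene that was not called, had 39434, 42570 and 48400 on them.

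The last Slc26a3 probe set, 1453151_at, was far dimmer and was not called. Its signals were 698.6, 590.9 and 1179 on the NHE3-/- arrays and 283, 401.8 and 631.8 on the NHE3+/+ arrays, so that 1 NHE3-/- array lay below the highest NHE3+/+ array. Its log2 fold change was 0.87 (SE 0.29, limma adjusted p = 0.0784), close to those of the called probe sets with a wider error. The annotation gives it the same source sequence as 1429467_s_at. Without NHE3+/+ array 3 it was called (log2 fold change 1.15, adjusted p = 0.0351), but in 11 of the 15 alternative settings it was not.

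Slc26a2, the sulfate transporter whose human form is mutated in diastrophic dysplasia, was higher in NHE3-/- colon on all 3 of its probe sets. The brightest, 1427195_at, had 20974, 19397 and 22835 in NHE3-/- colon and 10502, 12362 and 12806 in NHE3+/+ colon. The groups did not overlap, and the log2 fold change was 0.83 (SE 0.11, limma adjusted p = 0.00101). The probe set 1421145_at had 11478, 8408 and 9825 in NHE3-/- colon and 5509, 5877 and 5681 in NHE3+/+ colon, where the 3 arrays lay close together (log2 fold change 0.79, SE 0.12, limma adjusted p = 0.00231).

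The third Slc26a2 probe set, 1443882_at, passed the threshold narrowly. Its signals were 18858, 15253 and 18175 in NHE3-/- colon and 9403, 13189 and 14258 in NHE3+/+ colon, with a log2 fold change of 0.52 (SE 0.15, limma adjusted p = 0.0498). The groups did not overlap, but the lowest NHE3-/- array and the highest NHE3+/+ array were near each other. Its call was lost in 10 of the 15 alternative settings, and over all 15 its adjusted p ranged from 0.00851 to 0.174. The probe sets 1427195_at and 1421145_at held their calls in all 15.

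Slc26a6, a luminal exchanger of chloride, bicarbonate and oxalate that is known best from the small intestine and kidney, had 1 probe set of low signal. It had 164.7, 225 and 128.7 on the NHE3-/- arrays and 61, 21.4 and 149.1 on the NHE3+/+ arrays. The groups overlapped through NHE3+/+ array 3, and the log2 fold change of 1.06 (SE 0.41, 95% interval 0.16 to 1.97) was not called (limma adjusted p = 0.122). Without NHE3+/+ array 3 the log2 fold change was 1.52 and the adjusted p = 0.0389. In the other 13 of 14 alternative settings it was not called, with log2 fold changes down to 0.63 and adjusted p up to 0.533.

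**Figure D1:**
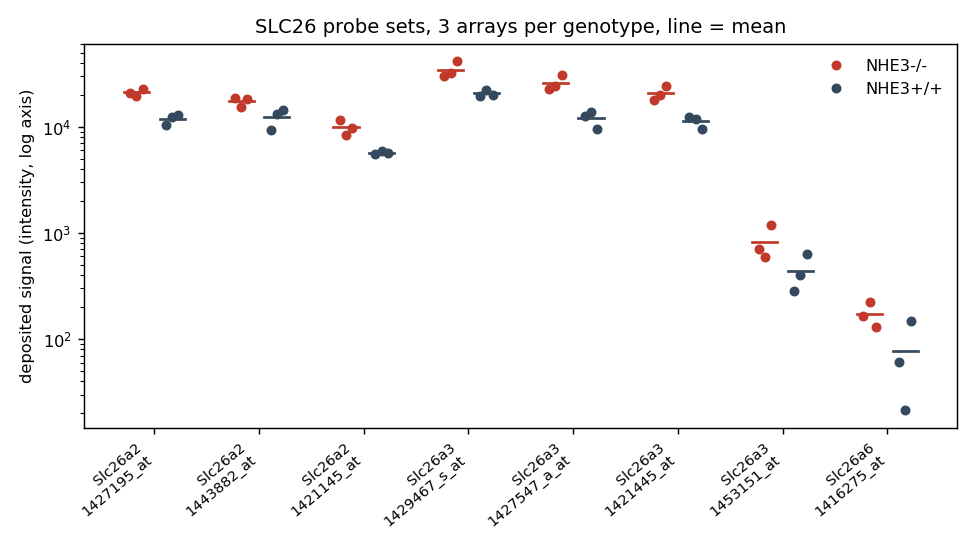
Deposited signals (intensity, log axis) of the 8 SLC26 probe sets on 3 NHE3-/- arrays (red, left) and 3 NHE3+/+ arrays (dark blue, right), with a line at each group's mean. The NHE3-/- points lie above all NHE3+/+ points for the 3 Slc26a2 probe sets and the 3 bright Slc26a3 probe sets, and overlap them for 1453151_at and for Slc26a6.

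The SLC4 genes gave no call higher. Slc4a2, the chloride-bicarbonate exchanger AE2 of the basolateral membrane, had 4518, 3928 and 4112 on the NHE3-/- arrays and 3488, 3926 and 4623 on the NHE3+/+ arrays. The NHE3-/- arrays lay within the spread of the NHE3+/+ arrays. The log2 fold change was 0.07 (SE 0.12, limma adjusted p = 0.760), with a 95% interval from -0.20 to 0.33. The fold changes of the called SLC26 probe sets, the lowest of which is 0.52, lie above that interval. The 95% interval of that lowest one, 1443882_at of Slc26a2, runs from 0.19 to 0.85 and overlaps that of Slc4a2. With quantile normalization the Slc4a2 log2 fold change was -0.01.

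Slc4a4, the sodium-bicarbonate cotransporter NBCe1, was read by 5 probe sets, and they did not give 1 answer. The probe set 1426432_a_at had 671.3, 615.2 and 363.2 in NHE3-/- colon and 1030, 1078 and 923.6 in NHE3+/+ colon. Every NHE3-/- array lay below every NHE3+/+ array, and the log2 fold change of -0.88 (SE 0.20, limma adjusted p = 0.0196) was called. It was not called without NHE3+/+ array 2 (log2 fold change -0.84, adjusted p = 0.0761) or without a mean-variance trend (adjusted p = 0.0831), and with NHE3-/- array 3 alone it was -1.40.

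The probe set 1421225_a_at of Slc4a4 also had no overlap, at 742.9, 756.7 and 532.8 in NHE3-/- colon and 1026, 1219 and 858.3 in NHE3+/+ colon. Its log2 fold change of -0.59 (SE 0.18) narrowly missed the threshold (limma adjusted p = 0.0531), and in 5 of the 15 alternative settings it was called. On both of these probe sets NHE3-/- array 3 had the lowest signal of all 6 arrays.

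The brightest Slc4a4 probe set, 1434096_at, gave nearly equal values. It had 1597, 1636 and 1802 in NHE3-/- colon and 1813, 1835 and 1649 in NHE3+/+ colon (log2 fold change -0.07, 95% interval -0.32 to 0.17, limma adjusted p = 0.720). The probe set 1452071_at had 986.3, 1010 and 1034 in NHE3-/- colon and 1050, 1145 and 757.6 in NHE3+/+ colon (log2 fold change 0.06, 95% interval -0.29 to 0.40, limma adjusted p = 0.849). Both groups overlapped on these 2 probe sets, and 1452071_at has the same source sequence in the annotation as 1426432_a_at, which fell. The signs of these 2 near-zero values turned in some settings: 1434096_at was 0.05 with equal medians and 1452071_at was -0.12 without NHE3+/+ array 3.

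The last Slc4a4 probe set, 1450169_at, was too dim to test, at 8.5, 58.2 and 37.5 in NHE3-/- colon and 28.3, 23.7 and 5.3 in NHE3+/+ colon.

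The disagreement within Slc4a4 was measured on each array as the log2 value of 1 probe set minus that of another, a comparison added after the values had been seen. For 1426432_a_at minus 1434096_at this was -1.21, -1.37 and -2.22 on the NHE3-/- arrays and -0.80, -0.75 and -0.82 on the NHE3+/+ arrays. The groups did not overlap, and the difference changed by -0.81 (two-sided p = 0.1 by an exact permutation test, which can go no lower with 3 arrays per genotype). For 1426432_a_at minus 1452071_at the change was -0.94, for 1421225_a_at minus 1434096_at -0.52 and for 1421225_a_at minus 1452071_at -0.65, each with an exact permutation p = 0.1. Over the 15 pairs of probe sets of Slc4a4, Slc26a3 and Slc26a2 compared in this way, the lowest adjusted p was 0.25. Within Slc26a3, 1429467_s_at minus 1427547_a_at changed by -0.38 (exact permutation p = 0.1), both having risen. The change between the 2 flat Slc4a4 probe sets was -0.13 (exact permutation p = 0.7). The sources used here do not say which of the start windows printed above any of these probe sets reads.

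**Figure D2:**
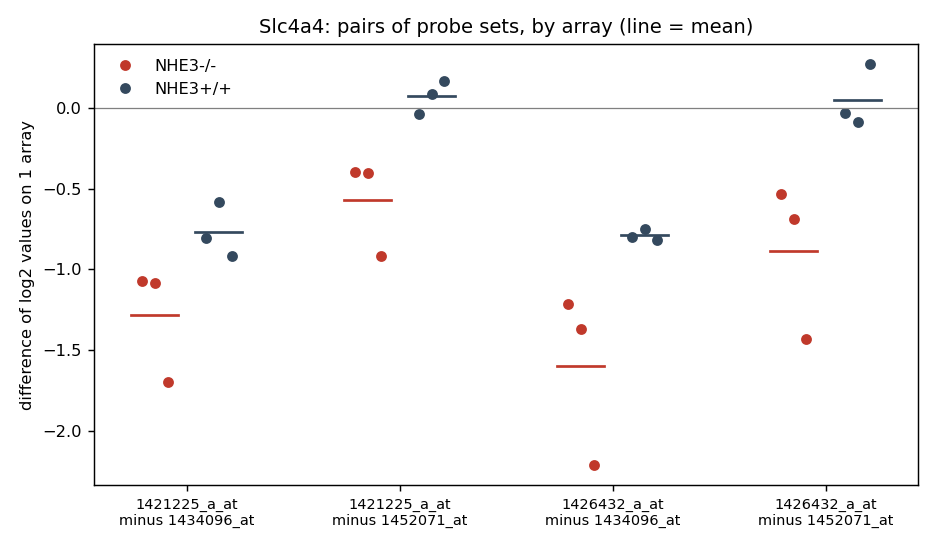
Difference of log2(signal + 31.4) between 2 Slc4a4 probe sets on the same array, for 4 pairs, in NHE3-/- (red, left) and NHE3+/+ (dark blue, right) colon, with a line at each mean. In each pair all 3 NHE3-/- points lie below all 3 NHE3+/+ points, and NHE3-/- array 3, the third red point, lies lowest.

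Slc4a1, the anion exchanger band 3 of the red blood cell membrane, had only dim probe sets. The one tested, 1416464_at, had 81.9, 131.2 and 84.1 in NHE3-/- colon and 37.5, 106.7 and 26.9 in NHE3+/+ colon. The groups overlapped, and the log2 fold change of 0.65 (SE 0.38, limma adjusted p = 0.297) was not called. Its NHE3+/+ mean log2 value of 6.36 alone would have left it below the filter at 6.52. The other 2 were under the filter: 1434502_x_at had 45.2, 73.8 and 27.2 in NHE3-/- colon and 8.4, 23.9 and 21.4 in NHE3+/+ colon, and 1431743_a_at stayed between 3.3 and 12.7 on all 6 arrays.

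Red blood cell genes were also dim. Of 13 listed, 2 were tested and 0 were called, namely Sptb (log2 fold change -0.03, limma adjusted p = 0.952) and Ank1 (0.19, adjusted p = 0.597). The globin gene Hba-a1 was under the filter, with signals of 62.6, 23.4 and 10.8 in NHE3-/- colon and 42.1, 20 and 67.8 in NHE3+/+ colon.

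**Figure D3:**
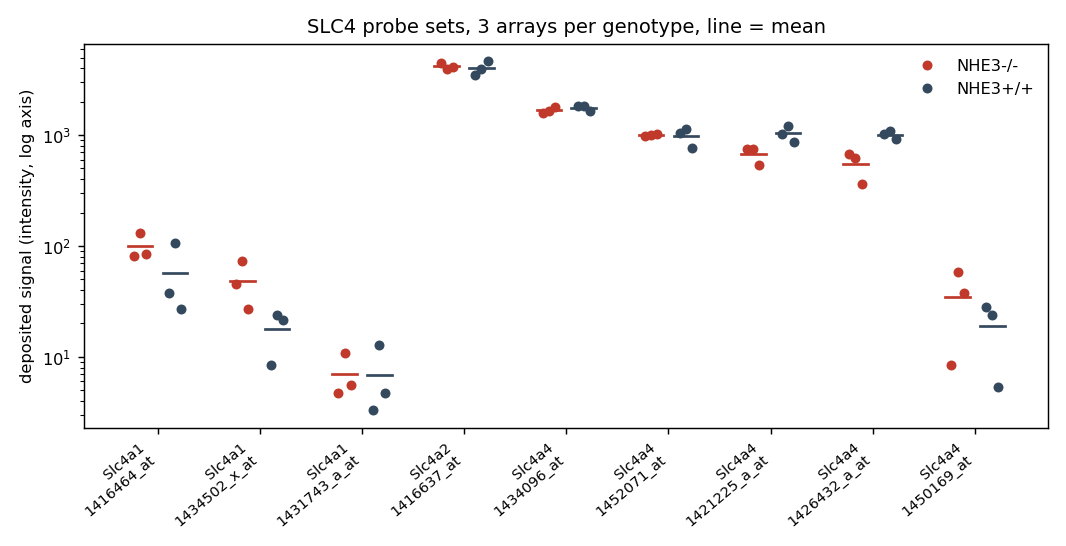
Deposited signals (intensity, log axis) of the 9 SLC4 probe sets on 3 NHE3-/- arrays (red, left) and 3 NHE3+/+ arrays (dark blue, right), with a line at each group's mean. The NHE3-/- points lie below all NHE3+/+ points for 1421225_a_at and 1426432_a_at of Slc4a4, above them for the dim 1434502_x_at of Slc4a1, and overlap them for the other 6.

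Set side by side, the luminal SLC26 genes had 6 of 8 tested probe sets higher and 0 lower, and the SLC4 genes had 0 of 6 higher and 1 lower, against 4.97% higher and 6.24% lower over all probe sets. The log2 fold changes ran from 0.52 to 1.10 for SLC26, with a median of 0.85, beside -0.10 over all tested. For SLC4 they ran from -0.88 to 0.65, with a median of -0.01. The highest SLC4 value is that of Slc4a1, which was tested only because of its NHE3-/- signals. Probe sets of 1 gene share its transcripts, so these counts rest on 3 genes of each family. No test was made of the families as such, since the members were chosen with results known.

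The families were also set against each other on every array. With each gene given by its brightest probe set, the mean log2 value of the 3 SLC26 genes exceeded that of the 3 SLC4 genes by 2.40, 2.40 and 2.48 on the NHE3-/- arrays and by 1.80, 1.28 and 2.22 on the NHE3+/+ arrays. The groups did not overlap, and the means were 2.43 ± 0.04 in NHE3-/- colon and 1.77 ± 0.47 in NHE3+/+ colon (SD, n = 3 each), a change of 0.66, or 0.41 without NHE3+/+ array 2. Since each probe set binds with its own strength, only the change between genotypes can be read from these figures, not the level. Without the dim Slc26a6 and Slc4a1, a choice made after the values had been seen, the differences were 3.20, 3.28 and 3.48 in NHE3-/- colon and 2.49, 2.62 and 2.52 in NHE3+/+ colon, a change of 0.78.

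**Figure D4:**
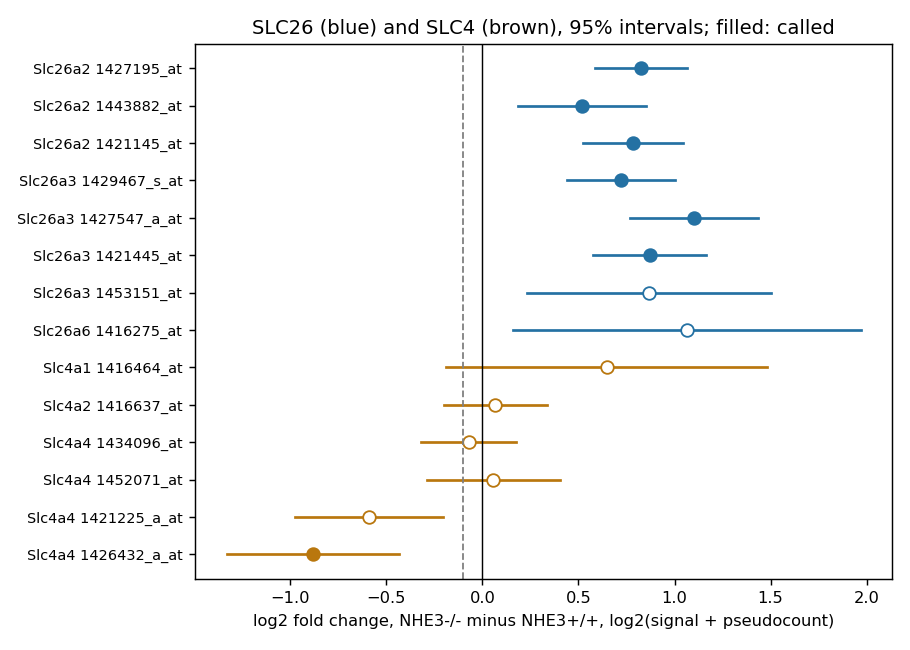
Log2 fold change of NHE3-/- over NHE3+/+ colon, on the scale log2(signal + 31.4), for the 14 tested member probe sets, with 95% intervals from limma (SLC26 blue, SLC4 brown, filled where called). The dashed line is the median of all tested probe sets, -0.10. All 8 SLC26 values lie between 0.52 and 1.10, and the SLC4 values spread from -0.88 to 0.65.

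Relatives of the members gave little signal. Of 8 other SLC26 genes, only Slc26a11 was tested, at 26.6, 95.4 and 149.7 in NHE3-/- colon and 127.3, 165 and 153.2 in NHE3+/+ colon (log2 fold change -0.70, limma adjusted p = 0.264). Slc26a4, which encodes the exchanger pendrin, was under the filter with at most 11.6 in NHE3-/- colon and 44.2 in NHE3+/+ colon. Of 6 other SLC4 genes, 2 were tested and not called: Slc4a11 had a log2 fold change of 0.30 (adjusted p = 0.353) and Slc4a8 one of -0.23 (adjusted p = 0.785).

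Counts in the gene lists from here on stand beside 4.97% higher and 6.24% lower over all tested probe sets. A list of 6 other exchangers and anion channels, drawn up as luminal, held 1 gene that rose and 0 that fell. The one that rose is misplaced there: Best2, a bicarbonate-permeable anion channel, is known in mouse colon from the basolateral membrane of goblet cells, so that 0 of the other 5 genes were called through their brightest probe set. Of the 4 probe sets of Slc9a8, another sodium-hydrogen exchanger, 1 that is not its brightest was lower (log2 fold change -0.96, limma adjusted p = 0.0354). Best2 was at 2592, 2565 and 2589 in NHE3-/- colon and 596.3, 701 and 597.9 in NHE3+/+ colon (log2 fold change 1.98, SE 0.12, limma adjusted p = 5.48e-06). The chloride and bicarbonate channel Cftr had a log2 fold change of -0.18 (adjusted p = 0.418), and the luminal sodium-hydrogen exchanger Slc9a2 had 0.10 (adjusted p = 0.575).

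Basolateral pumps, carriers and channels gave 1 gene higher and 2 lower of 7 tested. The chloride channel gene Clcn2 rose, at 5730, 4837 and 5169 in NHE3-/- colon and 3421, 3740 and 3236 in NHE3+/+ colon (log2 fold change 0.59, SE 0.11, limma adjusted p = 0.00609). The potassium channel genes Kcnn4 (-1.25, adjusted p = 0.00044) and Kcne3 (-0.52, adjusted p = 0.0214) fell, the Kcne3 call being lost in 7 of the 15 alternative settings. Each gene counts through its brightest probe set, which leaves out Atp1b1, a sodium pump subunit: its brightest was not called (0.30, adjusted p = 0.142), but 3 of its 5 probe sets were called higher (0.81, 0.55 and 0.47, adjusted p = 0.00255, 0.0187 and 0.0425). The sodium-potassium-chloride cotransporter Slc12a2, which loads chloride from the blood side, had -0.27 (adjusted p = 0.151).

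Carbonic anhydrases, which turn carbon dioxide and water into bicarbonate and protons, gave 2 genes higher and 1 lower of 7 tested. Membrane-bound Car4 had 31824, 36486 and 48680 in NHE3-/- colon and 18276, 22111 and 20386 in NHE3+/+ colon (log2 fold change 0.93, SE 0.15, limma adjusted p = 0.00299). Cytosolic Car2 also rose (0.50, adjusted p = 0.0225), and Car12, a basolateral enzyme, fell (-0.61, adjusted p = 0.0454). The Car12 call was lost in 11 of the 15 alternative settings and that of Car2 in 5.

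Scaffolds and regulators of these transporters gave 1 higher and 3 lower of 10 tested. Pdzd3, a luminal PDZ scaffold also called NHERF4, rose (log2 fold change 0.67, SE 0.14, limma adjusted p = 0.0109), at 741, 849.9 and 747.7 in NHE3-/- colon and 475.8, 494.4 and 458.7 in NHE3+/+ colon. On their brightest probe sets, the scaffold Slc9a3r2, or NHERF2, fell (-0.96, adjusted p = 0.0235), as did the kinases Wnk4 (-1.10, adjusted p = 0.00855) and Wnk1 (-0.41, adjusted p = 0.0365). Dimmer Slc9a3r2 probe sets ran from -1.79 (adjusted p = 0.005) to -0.0012 (adjusted p = 0.998). Dimmer ones of Wnk1 gave -0.93 (adjusted p = 0.132) and 0.18 (adjusted p = 0.701). The Wnk1 call was lost in 10 of the 15 alternative settings and that of Slc9a3r2 in 7. Slc9a3r1, or NHERF1, is counted as not called through its brightest probe set (0.38, adjusted p = 0.0681), while its other 2 were called higher (0.63, adjusted p = 0.00284, and 0.46, adjusted p = 0.0329). Ahcyl1, which encodes IRBIT, an activator of NBCe1, had a log2 fold change of -0.06 (adjusted p = 0.745).

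Genes that import, activate or spend sulfate gave 2 higher and 3 lower of 11 tested. Slc13a1, a sodium-sulfate cotransporter, rose on its brightest probe set (log2 fold change 0.83, SE 0.19, limma adjusted p = 0.0186). That probe set had 3898, 2421 and 2309 in NHE3-/- colon and 1850, 1414 and 1433 in NHE3+/+ colon. A dimmer one was flat, at 277.8, 163 and 283.9 in NHE3-/- colon and 232.9, 225.2 and 243.3 in NHE3+/+ colon (0.01, adjusted p = 0.986). The sulfotransferase Sult1b1 also rose (0.91, adjusted p = 0.000755), while Sult1c2 fell (-1.34, adjusted p = 0.00217). Slc35b2, which carries activated sulfate into the Golgi, fell (-0.51, adjusted p = 0.0289), and so did the brightest of 3 probe sets of Bpnt2, a Golgi phosphatase of sulfation (-0.84, adjusted p = 0.0225). Of the alternative settings, 9 ended the Slc35b2 call, 6 that of Bpnt2 and 4 that of Slc13a1, which was 0.56 with NHE3-/- array 3 alone (adjusted p = 0.132). Papss2, which makes activated sulfate, had -0.13 (adjusted p = 0.427).

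**Figure D5:**
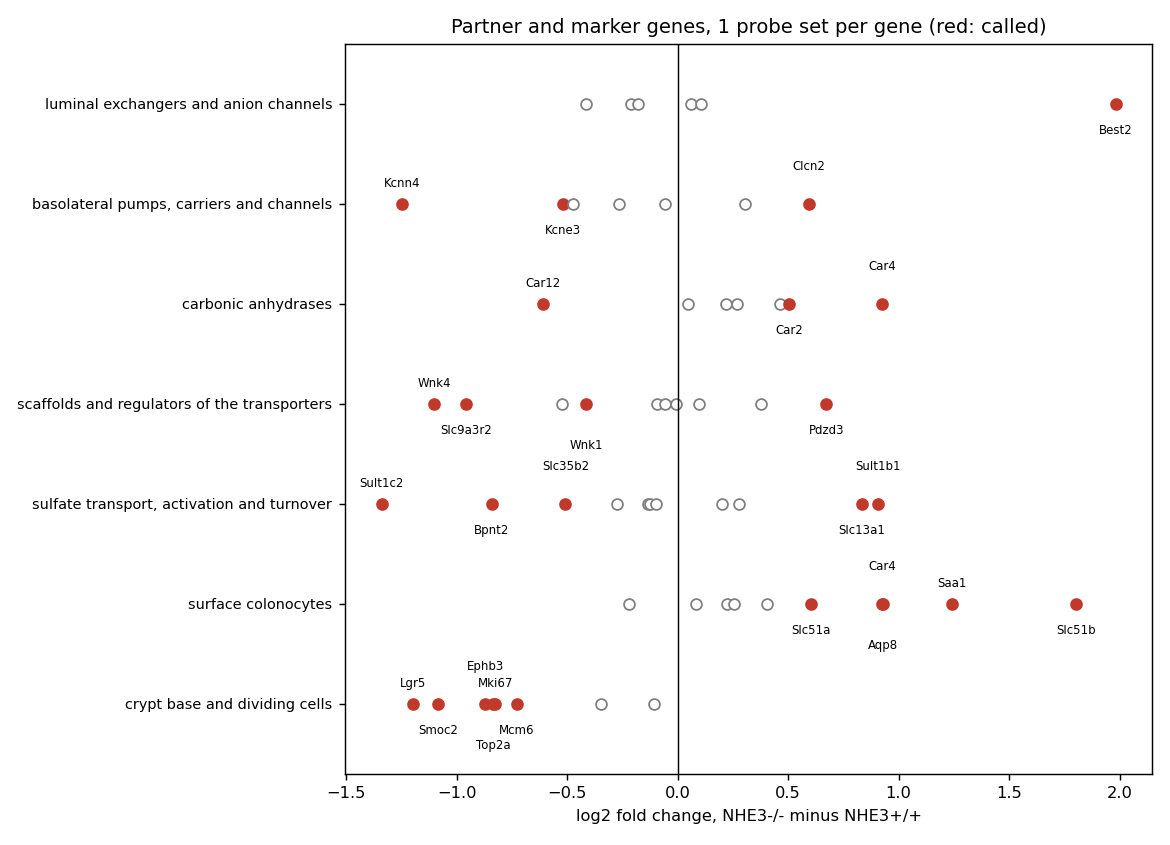
Log2 fold change of NHE3-/- over NHE3+/+ colon for each tested gene of 5 partner lists and 2 marker lists, 1 probe set per gene, red and named where called. Called genes lie on both sides of 0 in the basolateral, carbonic anhydrase, scaffold and sulfate lists, above 0 in the surface colonocyte list and below 0 in the crypt list.

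Some markers of the cells that carry these transporters moved as well. Of 10 surface colonocyte genes, all tested, 5 were higher and 0 lower, among them the bile acid carrier subunit Slc51b (log2 fold change 1.80, limma adjusted p = 9.26e-06) and the serum amyloid gene Saa1 (1.24, adjusted p = 0.000118). The water channel Aqp8 (0.93, adjusted p = 0.000377) and Car4, also counted with the carbonic anhydrases, were higher too. With quantile normalization 1 gene of this list was lower. On the deposited scale 5 were not called. They include Krt20, a keratin of mature colonocytes (0.23, adjusted p = 0.210), the surface mucin gene Muc3 (0.09, adjusted p = 0.709) and Guca2a (-0.22, adjusted p = 0.240). The summed signal of the list ran from 265838 to 342521 in NHE3-/- colon and from 198092 to 238059 in NHE3+/+ colon. Bright genes weigh most in this sum, so it is not a count of surface cells. Saa1 had mean signals of 53132 in NHE3-/- and 22310 in NHE3+/+ colon, and the uncalled Lypd8 had 58875 and 49257.

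Of 8 tested genes of crypt base and dividing cells, 0 were higher and 6 lower, with summed signals from 8550 to 10170 in NHE3-/- colon and from 11366 to 14463 in NHE3+/+ colon. The stem cell receptor Lgr5 had a log2 fold change of -1.20 (limma adjusted p = 0.00578) and Smoc2, a secreted protein of the crypt base, one of -1.08 (adjusted p = 0.0425), a call lost in 9 of the 15 alternative settings. The Ephrin receptor Ephb3 had -0.87 (adjusted p = 0.00721) and Top2a, a topoisomerase of dividing cells, -0.83 (adjusted p = 0.0100). A dimmer Top2a probe set had -0.14 (adjusted p = 0.717). Axin2 (-0.34, adjusted p = 0.297) and Pcna (-0.11, adjusted p = 0.725) were not called. With NHE3-/- array 3 alone, or with no mean-variance trend, 3 genes of the list were lower. The part of these shifts in the SLC26 rise and the Slc4a4 fall was not tested.

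General epithelial markers gave 1 higher (Vil1, log2 fold change 0.41, limma adjusted p = 0.0203) and 1 lower (Krt18, -0.81, adjusted p = 0.00106) of 7, and the Vil1 call was lost in 8 of the 15 alternative settings. With medians set equal, 3 of the 7 were higher. Their summed signals overlapped, at 166614 to 194011 in NHE3-/- colon and 157641 to 180619 in NHE3+/+ colon. The 6 tested smooth muscle genes gave 0 calls, with summed signals from 1282 to 2481 in NHE3-/- colon and 1683 to 1983 in NHE3+/+ colon, and signals of the muscle myosin gene Myh11 were at most 186.2 on any array. Of goblet cell genes, 1 of 8 was lower through its brightest probe set (Spdef, -1.05, adjusted p = 0.000577). The brightest of Agr2 (-0.36, adjusted p = 0.0739) and of Clca1 (0.07, adjusted p = 0.779) were not called. A dimmer probe set of each was called lower (Agr2 -1.34, adjusted p = 0.00605, and Clca1 -0.82, adjusted p = 0.0204). Enteric nerve, fibroblast, endothelial and macrophage markers gave 0 calls among 3, 7, 4 and 4 tested.

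Some markers of fat, pancreas and B cells were lower in NHE3-/- colon. Both tested fat genes, Adipoq (log2 fold change -1.77, limma adjusted p = 0.0484) and Fabp4 (-2.08, adjusted p = 0.0293), were lower, with summed signals from 84.4 to 415.5 in NHE3-/- colon and 468.4 to 2336 in NHE3+/+ colon. Of 2 tested pancreas genes, Clps was lower (-2.36, adjusted p = 0.000196) and Cela2a was not called (-0.99, adjusted p = 0.353). Of 5 tested B cell and plasma cell genes, Fcer2a was lower (-2.00, adjusted p = 0.0128). Adipoq and Fcer2a passed the filter only through the NHE3+/+ arrays, where they are high: their NHE3-/- mean log2 values of 6.09 and 6.40 lie under 6.52. The Adipoq call was lost in 10 of 14 alternative settings, that of Fcer2a in 4 of 14 and that of Fabp4 in 6 of 15. The fat and B cell genes were highest on NHE3+/+ array 2, apart from the plasma cell gene Jchain. Without that array 5 member probe sets were higher and 0 lower, and the log2 fold change of 1426432_a_at of Slc4a4 was -0.84.

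The genes most like the members over the 6 arrays were found by Pearson's r of log2 values, a description of 6 points that mixes genotype and array. For Slc26a3 (1429467_s_at) they were Gal3st2, a galactose sulfotransferase, at 0.998, Car4 at 0.997 and Tgm3, a transglutaminase, at 0.996, and 374 of 22813 other probe sets exceeded 0.95. For Slc4a2 they were Tmlhe, an enzyme of carnitine synthesis, at 0.997, Rb1cc1, an autophagy gene, at 0.984 and Aph1a, a gamma-secretase subunit, at 0.980, and 18 of 22816 exceeded 0.95.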

How the data were processed

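Per the labels' protocols, RNA was extracted with Trizol and every array received the RNA of 1 sample. The deposited values are linear intensity values, and GCOS is named, without a version, in the submitters' processing notes. Each array's mean after trimming 2% from each end is 500, a scaling by the authors. No read depth applies: precision is set by having 3 arrays per genotype.

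Signals were put on the scale log2(signal + 31.4), where 31.4 is the 25th percentile over the table. The 64 array controls and probe sets with a mean log2 under the 40th percentile (6.52) were left out. The genotypes were compared over 27024 probe sets with limma 3.58.1 in R 4.3.3 (lmFit, eBayes with trend, two-sided, Benjamini-Hochberg, threshold 0.05), which was tested on simulated data. Errors are SE from limma. A list gene was represented by its brightest probe set. The annotation ties 34958 probe sets to 1 gene, 932 to several and 9211 to none, and symbols were updated through RefSeq for 34754. The genes named are the members, Slc9a3, up to 4 called genes of each list, their partners, and 3 genes of most similar pattern for the brightest probe set of each family. The members and lists were chosen with earlier results of these data known.

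Replicate numbers are shared between genotypes, but the deviations of same-numbered arrays correlated at 0.03, -0.04 and 0.00, so they were not taken as pairs. Alternatives were other pseudocounts, filters and scalings, no trend, a replicate block and arrays left out.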

Additional observations from a re-analysis of the deposited data

How the results depend on the processing

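Over 15 alternative settings, 2 probe sets each of Slc26a2 (1427195_at, 1421145_at) and Slc26a3 (1427547_a_at, 1421445_at) kept their direction and their call, with log2 fold changes from 0.63 to 1.37. The other called Slc26a3 probe set, 1429467_s_at, lost its call in the fit with no trend (adjusted p = 0.0626). Member probe sets lower numbered 2 with a pseudocount of 100, with a filter at the 60th percentile, with the replicate block and with NHE3-/- array 3 alone, and 0 with no trend. With 1 array left out, 0 (without NHE3+/+ array 2) to 2 (without NHE3+/+ array 3) were lower and 5 to 8 higher. With 1 array left out, all probe sets called numbered 839 to 1211 higher and 775 to 1385 lower, and list genes called lower numbered 12 to 18. All probe sets lower fell to 1011 without NHE3-/- array 1, 832 without NHE3-/- array 3, 843 without NHE3+/+ array 2 and 775 without NHE3+/+ array 3, and those higher to 839 without NHE3-/- array 3. List genes lower numbered 12 without NHE3-/- array 3 and 13 without NHE3+/+ array 2 or 3. Array medians set equal gave 738 of all probe sets lower and 22 list genes higher. No trend gave 511 higher and 558 lower over all probe sets, and 7 list genes higher and 8 lower. NHE3-/- array 3 alone gave 767 of all probe sets higher. The replicate block also gave 1453151_at of Slc26a3 an adjusted p = 0.0163 and 1421225_a_at of Slc4a4 one of 0.0324, while 1443882_at of Slc26a2 lost its call (0.0573). Signs turned only for values near 0: Slc4a4 1434096_at (0.0464 with medians equal, 0.03 with NHE3-/- array 3 alone), Slc4a4 1452071_at (-0.115 to 0.173 with 1 array left out, negative without NHE3+/+ array 3) and Slc4a2 (-0.0118 after quantile normalization, and -0.0275 to 0.174 with 1 array left out, negative without NHE3+/+ array 1). The causes were not tested. The difference between the families changed by 0.41 to 0.89 between genotypes with 1 array left out. Signal over background limits Slc26a6 and Slc4a1.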
